A study of Mus musculus and Rattus norvegicus with 43 samples.

Results

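The comparison described here sets 5 mice injected with the C/N-TAF miRNA (CN) against 8 mice injected with the N-TAF miRNA (N), in the striatum. Its 13 libraries were chosen by their injection label out of the 43 samples of the series, and all genes of the mouse table were examined. Both groups were C57BL/6 mice injected on postnatal day 0 and taken at 4 months of age, and so were 8 mice injected with a control miRNA, which are given beside them for level. No transgene or deletion is named for any of the 3 groups, each library is 1 animal by its label, and the tissue was the striatum of 1 hemisphere. The labels name the miRNAs only as control, C/N-TAF and N-TAF, and give neither the vector nor the share of cells that took it up. In this mixed tissue, fewer cells of a type and less RNA per cell cannot be told apart.

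TAF1 is the largest subunit of TFIID, the general transcription factor that binds core promoters and helps RNA polymerase II to start transcription. Neurons make an additional form of it, N-TAF1, by including a short alternative exon, while the canonical form, C-TAF1, is made in most cells. Altered TAF1 expression is linked to X-linked dystonia-parkinsonism, a disease that affects the striatum, whose principal cells are GABAergic spiny projection neurons that carry either the D1 or the D2 dopamine receptor. Read by their names, the C/N-TAF miRNA targets both forms of Taf1 and the N-TAF miRNA the neuronal form alone. A comparison of them would then ask what is added by targeting both forms. The labels do not state the targets.

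Taf1 itself (ENSMUSG00000031314, on chromosome X) was at 101, 50.6, 95.7, 101 and 105 CPM in CN libraries 1 to 5, where CPM is the read count scaled to a common library total by the TMM method. In N libraries its level ranged from 83.7 to 104 CPM with a median of 99.8, and in control libraries from 87.1 to 103 with a median of 101. The groups overlapped, and the single low value belonged to CN library 2. CN over N gave a log2 fold change of -0.10 (SE 0.113, edgeR quasi-likelihood adjusted p = 0.728) with all libraries and 0.05 (SE 0.053, adjusted p = 0.678) without CN library 2. Its direction thus depended on 1 library, and no difference in the summed Taf1 transcripts was detected. Gene counts add the canonical and neuronal forms, so the level of each form was not measured.

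The 17 genes of TFIID subunits had a median log2 fold change of 0.04 with all libraries and 0.05 without CN library 2, against 0.00 and -0.01 over all genes tested. None passed the adjusted test. Taf4, the subunit that helps to build the TFIID core, had 0.13 (adjusted p = 0.294) and Taf7, which binds TAF1 directly, had 0.20 (adjusted p = 0.301) without CN library 2.

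CN library 2 stood apart from the other libraries of the 3 groups before any gene was considered. Across 15479 genes at a mean of 1 CPM or more, Spearman's rho between exon length and the deviation of a gene from its mean over libraries was -0.53 in CN library 2, and 0.42, -0.19, 0.13 and 0.14 in CN libraries 1, 3, 4 and 5. In N libraries it ranged from -0.30 (N library 4) to 0.11, and in controls from -0.14 to 0.21. CN library 1 therefore lay at the other end of the same scale. Weights that limma estimated for each library were 0.0418 for CN library 2 and 0.303 for CN library 1, while those of the other libraries lay between 0.613 and 2.1.

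**Figure D1:**
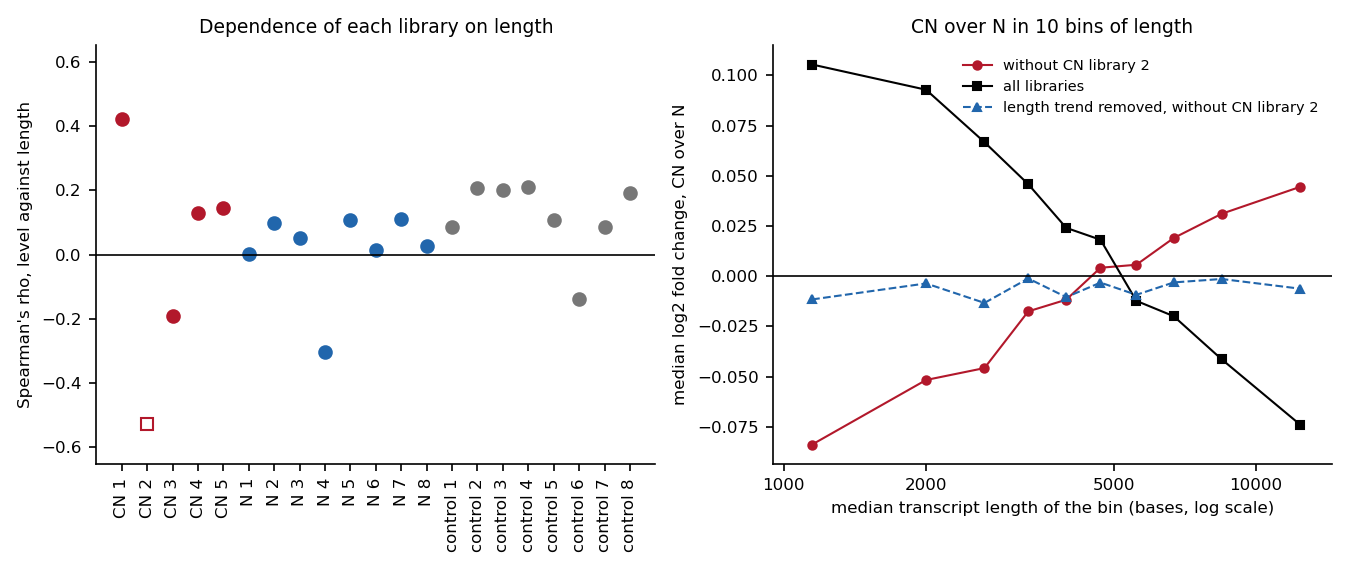
Left, Spearman's rho between exon length and the level of 15479 genes for each library of the CN, N and control groups, with CN library 2 as an open square. Right, median log2 fold change of CN over N in 10 bins of exon length (log axis, bases), which ran from 0.11 in the shortest to -0.07 in the longest bin with all libraries, from -0.08 to 0.04 without CN library 2, and from -0.01 to -0.01 after removal of the length trend.

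Some libraries carried transcripts of neighbouring tissue or differed in sex-linked genes. Myh4, a myosin of skeletal muscle, was at 15.7 and 15.0 CPM in N libraries 5 and 8 and at most 0.239 CPM in CN libraries. Xist, the transcript of the inactive X chromosome, was at 100 CPM or more in 0 of 5 CN, 1 of 8 N (N library 3) and 2 of 8 control libraries. Ddx3y, a gene of the Y chromosome, was at 47.1 to 82.8 CPM in CN libraries, at 0 CPM in N library 3 and at 69.9 CPM or more in the other N libraries. N library 3 thus had the pattern of a female animal and all CN libraries that of males, while the labels used here give no sex. Ttr, transthyretin of the choroid plexus, was at 207, 404, 80.1, 390 and 437 CPM in CN libraries, and at 4.75 to 3431 CPM in N libraries with a median of 89.6. Ambn, an enamel matrix gene, reached 0.5 CPM in 4 of 5 CN, 3 of 8 N and 5 of 8 control libraries. The animal numbers in the labels were 8 to 15 in CN and 16 to 25 in N mice, so that anything shared by neighbouring animals and the injection cannot be told apart. Reads counted per library came to 26.7 to 35.6 M (mega) in CN, 25.35 to 30.9 M in N and 24.9 to 33.0 M in control mice. Striatal identity was clear in every library: Ppp1r1b, the phosphatase inhibitor DARPP-32 of spiny neurons, was at 1445 to 2782 CPM in CN, 1489 to 2126 CPM in N and 1925 to 2149 CPM in control libraries.

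With all libraries, 0 of 19413 genes (0%) passed an adjusted p under 0.05 by edgeR's quasi-likelihood test. An unadjusted p under 0.05 was reached by 2294 genes (11.8%), of which 1162 were higher in CN (5.99%) and 1132 lower (5.83%). DESeq2 called 172 genes on the same libraries and limma-voom 0. All 5 CN libraries lay above all 8 N libraries for 43 genes (0.222%) and below them for 60 genes (0.309%).

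Without CN library 2, 70 of 19653 genes (0.356%) passed the same test, 51 higher in CN (0.26%) and 19 lower (0.0967%). An unadjusted p under 0.05 was reached by 3081 genes (15.7%), 7.85% of all genes tested being higher and 7.83% lower. The 4 CN libraries lay above every N library for 174 genes (0.885%) and below every one for 171 (0.87%). The count of 70 depended strongly on single libraries. With CN library 2 already out, it was 4 without CN library 1, 179 without CN library 3, 6 without CN library 4 and 20 without CN library 5. It was 336 without N library 1, 154 without N library 2, 35 without N library 3 and 40 without N library 5, and 48 to 83 without any other N library. With only the CN and N libraries in the fit and no controls to help estimate the spread, 1 gene was called.

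The 70 genes were selected in a fit that shares most of its libraries with the fits set beside it here, so their common sign is largely fixed by that choice. All 70 had the same sign with every library in the fit by edgeR and also without CN libraries 1 and 2, and 64 of the 70 by limma-voom with all libraries. In the 51 higher genes the median log2 fold change was 0.33 without CN library 2, 0.20 with all libraries and 0.28 without CN libraries 1 and 2. In the 19 lower genes it was -0.67, -0.54 and -0.63. CN library 2 lay on the same side of the N mean as the other CN libraries for 9 of the 51 higher and 11 of the 19 lower genes. The mean of the control mice lay between the CN and N means for 51 of the 51 higher and 17 of the 19 lower genes, which were chosen for their distance between CN and N. Below, "rose" and "fell" refer to CN against N in the fit without CN library 2, with an adjusted p under 0.05. Counts within lists at an unadjusted p under 0.05 are to be read beside all genes tested. Those shares were 7.85% higher and 7.83% lower without CN library 2, and 5.99% and 5.83% with all libraries. For calls without CN library 2 they were 0.26% and 0.0967%.

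Among the called genes named in this report, 3 were called most often in the 34 other settings tried without CN library 2. The called genes not named were not counted in this way. Htr1b was called in 33 of them and Gli1 and Mtfp1 in 32 each, and all 3 were called in each of the 20 settings that left out a further library. All 3 missed the threshold where the fit kept only libraries with Ambn at 0.5 CPM or more (3 CN against 3 N), with adjusted p-values of 0.118, 0.271 and 0.191, and Gli1 and Mtfp1 also missed it without the controls (adjusted p = 0.062 each). Close behind, Col7a1 was called in 30 of the 34 settings, and Dpy19l3, Tacc1 and Unc79 in 29 each.

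Among receptors, Htr1b, the serotonin 1B receptor that sits on axon terminals of spiny neurons and dampens release, had the smallest p among the genes that rose. Its level was 97.8, 58.7, 78.6, 90.3 and 91.3 CPM in CN libraries 1 to 5, against 54.1 to 70.5 CPM in N libraries with a median of 64.0. Controls ranged from 63.7 to 79.9 CPM with a median of 70.7. The 4 CN libraries other than library 2 lay above every N library, and CN library 2 lay inside the N range. The gene rose by 0.51 on the log2 scale (SE 0.0672, adjusted p = 0.000655), a 1.43-fold higher level, and 0.41 (SE 0.0925, adjusted p = 0.127) with all libraries. Set against controls, the log2 fold change was 0.32 for CN and -0.19 for N. The other 11 serotonin receptor genes tested showed no such call, and the list had a median of -0.07, with 2 genes higher and 1 lower at an unadjusted p under 0.05.

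Homer1, a scaffold of the postsynaptic density whose short form is induced by neuronal activity, was at 308, 140, 244, 293 and 296 CPM in CN libraries, against 201 to 248 CPM in N libraries with a median of 225. Of the CN libraries 3 lay above every N library, library 3 lay within the N range and library 2 below it. The gene rose by a log2 fold change of 0.36 (SE 0.07, adjusted p = 0.0223), against 0.20 (adjusted p = 0.524) with all libraries and an adjusted p of 0.0965 without CN libraries 1 and 2. Dlg1 (SAP97), another scaffold of glutamate receptors, was at 255, 161, 232, 235 and 240 CPM in CN and 178 to 233 CPM in N libraries with a median of 203. It rose by 0.26 on the log2 scale (SE 0.0547, adjusted p = 0.0328). Of 20 genes of the postsynaptic density these 2 were called, 8 were higher and 1 lower at an unadjusted p under 0.05, and the list median was 0.10, but only 0.02 with all libraries.

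Cacng4, an auxiliary subunit that steers AMPA receptors to the membrane, was at 185, 240, 169, 160 and 166 CPM in CN libraries, against 118 to 159 CPM in N libraries with a median of 137. All 5 CN libraries lay above all N libraries, although CN library 4 and N library 1 nearly met. Its log2 fold change was 0.33 (SE 0.0653, adjusted p = 0.0234) and 0.44 (SE 0.086, adjusted p = 0.0641) with all libraries. None of the 24 glutamate receptor genes listed, which do not include Cacng4, was called. Grm3, a metabotropic receptor that lowers cyclic AMP, had 0.40 (adjusted p = 0.0542) and Grm4, which acts in the same way at presynaptic sites, had 0.23 (adjusted p = 0.0801). Grik1, a kainate receptor subunit, was lower in every CN library, at 4.92, 4.66, 3.83, 4.24 and 4.66 CPM in CN and 5.19 to 7.50 CPM in N libraries. Its groups did not overlap, while its adjusted p was 0.101 (log2 fold change -0.43).

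Of the channels, Kcna4, a fast-inactivating voltage-gated potassium channel, was at 101, 79.3, 93.2, 104 and 100 CPM in CN libraries, against 70.3 to 87.2 CPM in N libraries with a median of 80.8. It rose by 0.31 on the log2 scale (SE 0.0599, adjusted p = 0.0223), and the 4 CN libraries in the fit lay above every N library. Scn2b, a beta subunit of voltage-gated sodium channels, was at 509, 359, 454, 473 and 469 CPM in CN and 349 to 447 CPM in N libraries with a median of 402. It rose by 0.26 (SE 0.0585, adjusted p = 0.0467) and was called in 12 of the 34 other settings. These were the only calls among 22 potassium channel and 20 sodium and calcium channel genes, whose list medians were 0.04 and 0.08 without CN library 2 and -0.07 and -0.06 with it. Kcnk4 (TRAAK), a mechanosensitive potassium leak channel at a low level and not in that list, was at 0.908, 1.43, 1.24, 0.759 and 1.24 CPM in CN libraries, against 1.70 to 3.35 CPM in N libraries with a median of 1.97. All 5 CN libraries lay below all N libraries, and it fell by 1.03 on the log2 scale (SE 0.237, adjusted p = 0.0495).

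Further genes that rose act in signalling and in the cytoskeleton. Tacc1, a centrosome and microtubule protein, was at 443, 197, 324, 347 and 357 CPM in CN libraries, against 237 to 317 CPM in N libraries with a median of 288. It rose by 0.39 (SE 0.0694, adjusted p = 0.0144), with CN library 2 below every N library and the 4 others above every one. Cttnbp2, a cortactin-binding protein of dendritic spines, was at 298, 123, 254, 284 and 258 CPM in CN libraries, against 175 to 250 CPM in N libraries, and rose by 0.37 (SE 0.0691, adjusted p = 0.0198). Sik2, a salt-inducible kinase that restrains CREB coactivators, was at 37.6, 4.45, 29.8, 36.7 and 35.5 CPM in CN libraries, against 21.2 to 30.7 CPM in N libraries, and rose by 0.41 (SE 0.0873, adjusted p = 0.034). Garem1, an adaptor of growth factor signalling, was at 73.3, 15.1, 60.7, 75.1 and 66.9 CPM in CN libraries, against 43.2 to 61.2 CPM in N libraries, and rose by 0.38 (SE 0.0765, adjusted p = 0.0256). For these 4 genes CN library 2 was the lowest of all CN and N libraries. Kitl, the ligand of the receptor Kit, was at 72.0, 34.1, 51.7, 60.2 and 46.3 CPM in CN and 38.8 to 50.3 CPM in N libraries, and rose by 0.41 (SE 0.0896, adjusted p = 0.0409).

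A smaller number of genes were as high in CN library 2 as in the other CN libraries. P4ha1, a subunit of the prolyl hydroxylase that modifies collagen, was at 73.0, 68.5, 58.7, 71.3 and 72.8 CPM in CN libraries, against 40.0 to 59.6 CPM in N libraries with a median of 52.2 and 53.9 to 70.8 CPM in controls. Of the CN libraries 4 lay above every N library, and it rose by 0.46 (SE 0.085, adjusted p = 0.0198; 0.45 and adjusted p = 0.0632 with all libraries). Dbpht2 was at 130, 126, 99.9, 110 and 99.5 CPM in CN libraries, against 77.0 to 93.7 CPM in N libraries, with no overlap. It rose by 0.36 (SE 0.0704, adjusted p = 0.0223). Rundc1 was at 77.3, 98.3, 87.7, 88.5 and 97.1 CPM in CN and 64.6 to 81.7 CPM in N libraries, and rose by 0.28 (SE 0.0596, adjusted p = 0.034). Rxrg, a retinoid X receptor that is abundant in spiny neurons, was at 126, 174, 141, 139 and 138 CPM in CN libraries, against 76.4 to 120 CPM in N libraries with a median of 103. Its groups did not overlap, but its adjusted p was 0.0542 (log2 fold change 0.49, SE 0.112), and 0.0641 with all libraries.

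Among other genes that rose, chosen here after their values were seen, Tra2a and Sfpq encode splicing factors. Tra2a was at 138, 87.8, 119, 130 and 118 CPM in CN libraries, against 89.1 to 115 CPM in N libraries, with a log2 fold change of 0.35 (SE 0.0602, adjusted p = 0.0119). Sfpq had 0.33 (adjusted p = 0.0403). Unc79, a subunit of the sodium leak channel complex, had 0.29 (SE 0.0501, adjusted p = 0.0119), and Syt4, a synaptotagmin of dense-core vesicles, had 0.30 (SE 0.0613, adjusted p = 0.0256). Dpy19l3, a protein C-mannosyltransferase, rose by 0.32 (SE 0.0558, adjusted p = 0.0119), Jak2, a cytokine receptor kinase, by 0.27 (adjusted p = 0.0355) and Atf6, a sensor of unfolded proteins, by 0.23 (adjusted p = 0.0389). Dubr, a long non-coding RNA, was at 27.5, 13.6, 17.1, 18.9 and 17.8 CPM in CN and 12.5 to 18.6 CPM in N libraries and rose by 0.49 (SE 0.104, adjusted p = 0.0335).

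Genes that rose were long. Their median exon length was 5911 bases, against 3696 for all genes tested and 5034 for the 10263 genes tested at 10 CPM or more, and 42 of the 51 were longer than the median gene. The 19 genes that fell had a median of 4179 bases. Without CN library 2 the longest genes stood slightly higher in CN, as the plot of length bins shows, and CN library 1 carries that trend. After removal of the length trend the median log2 fold change was 0.30 in the 51 and -0.65 in the 19 genes, 105 genes were called, and 62 of the 70 were among them. The part of length in any single gene was not tested.

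**Figure D2:**
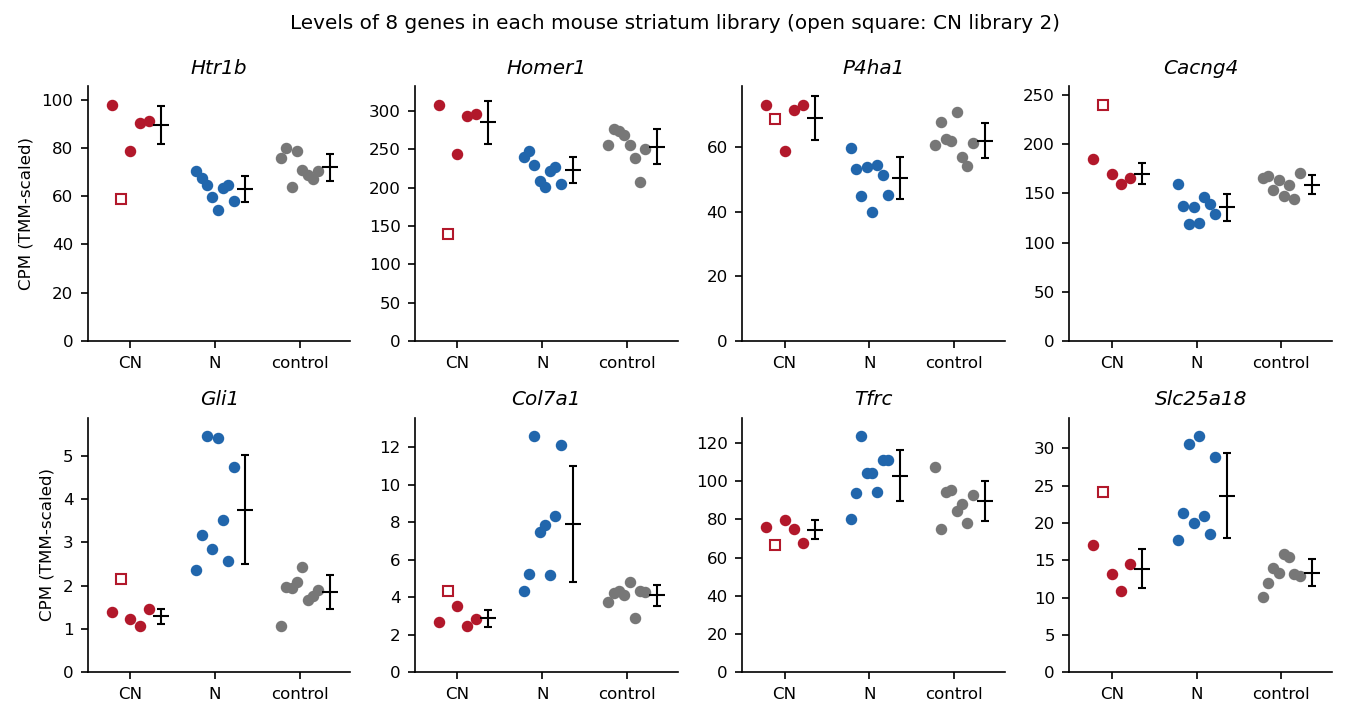
Level (CPM, linear axis from 0) of 8 genes in every CN, N and control library, with CN library 2 as an open square and bars for the mean ± SD of each group without that library. Htr1b, Homer1, P4ha1 and Cacng4 stood higher in CN than in N, and Gli1, Col7a1, Tfrc and Slc25a18 lower, with controls between or beside CN.

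Gli1, a transcription factor and a direct target of hedgehog signalling that is made in a subset of astrocytes, had the largest change of any called gene. It was at 1.40, 2.15, 1.24, 1.07 and 1.46 CPM in CN libraries, against 2.37, 3.16, 5.44, 2.86, 5.40, 3.51, 2.57 and 4.75 CPM in N libraries 1 to 8. Controls ranged from 1.07 to 2.44 CPM with a median of 1.93. All 5 CN libraries lay below all 8 N libraries, and the highest were N libraries 3, 5 and 8, those with Xist or muscle transcripts. It fell by 1.54 on the log2 scale (SE 0.235, adjusted p = 0.00401), to 0.345 of the N level, and the value was -1.36 (SE 0.233, adjusted p = 0.0632) with all libraries. In a fit without N libraries 3, 5 and 8 it was -1.16 (adjusted p = 0.039). Set against controls, N stood higher (log2 fold change 1.01, adjusted p = 0.012), while the CN value was -0.53 (adjusted p = 0.836).

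The other genes of the hedgehog pathway did not pass the test. Of 14 tested, Gli1 included, 0 were higher and 3 lower at an unadjusted p under 0.05 (Gli1, Gli2 and Sufu), beside 7.85% and 7.83% of all genes tested. The median of the 14 was -0.14 both with all libraries and without CN library 2. Gli2, the main activator, had -0.39 (SE 0.142, adjusted p = 0.177), and the co-receptor gene Cdon -0.15 (adjusted p = 0.348).

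Col7a1, the collagen of anchoring fibrils, was at 2.69, 4.36, 3.52, 2.50 and 2.86 CPM in CN libraries, against 4.35, 5.24, 12.6, 7.46, 7.85, 5.22, 8.35 and 12.1 CPM in N libraries 1 to 8. Controls ranged from 2.91 to 4.82 CPM with a median of 4.25. The groups met only at CN library 2 and N library 1. It fell by 1.45 (SE 0.241, adjusted p = 0.0124), and the value was -1.31 (adjusted p = 0.0632) with all libraries and -1.08 (adjusted p = 0.0316) without N libraries 3, 5 and 8. N stood higher than controls also for this gene, with a log2 fold change of 0.94 (adjusted p = 0.0302).

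Slc25a18, a mitochondrial glutamate carrier of astrocytes, was at 17.1, 24.2, 13.1, 11.0 and 14.5 CPM in CN libraries, against 17.8, 21.3, 30.6, 20.04, 31.6, 20.9, 18.5 and 28.8 CPM in N libraries 1 to 8, and 10.05 to 15.8 CPM in controls. Apart from CN library 2 the groups did not overlap, and N libraries 3, 5 and 8 were again the highest. It fell by 0.77 (SE 0.163, adjusted p = 0.0404), and the value was -0.50 (adjusted p = 0.124) without those N libraries. The N level was above that of controls (log2 fold change 0.83, adjusted p = 0.00967) and the CN value against controls was 0.06.

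Tfrc, the transferrin receptor for iron uptake, was at 76.1, 66.5, 79.7, 75.1 and 67.9 CPM in CN libraries, against 80.4 to 123 CPM in N libraries with a median of 104 and 75.0 to 108 CPM in controls. All 5 CN libraries lay below all N libraries. It fell by 0.46 (SE 0.0952, adjusted p = 0.034), and the value was -0.49 (adjusted p = 0.0632) with all libraries. Ppm1e, a phosphatase of calmodulin-dependent kinases, was at 52.9, 39.3, 44.1, 42.7 and 50.8 CPM in CN and 53.01 to 82.7 CPM in N libraries with a median of 70.2. It fell by 0.55 (SE 0.117, adjusted p = 0.0409). Tbc1d1, a GTPase-activating protein of glucose transporter traffic, was at 6.58, 6.99, 7.20, 7.84 and 6.89 CPM in CN and 8.24 to 13.8 CPM in N libraries. It fell by 0.53 (SE 0.108, adjusted p = 0.026), and neither gene's groups overlapped in any library.

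Mtfp1, a mitochondrial fission protein named here after its values were seen, was at 12.5, 33.5, 15.9, 14.7 and 15.6 CPM in CN libraries, against 18.9 to 23.5 CPM in N libraries and 14.6 to 17.6 CPM in controls. The 4 CN libraries in the fit lay below every N library, and CN library 2 above every one. It fell by 0.50 (SE 0.0778, adjusted p = 0.00401), while the value with all libraries was -0.18 (adjusted p = 0.66). The same opposite position of CN library 2 was seen in several genes that fell. Fxyd6, a regulator of the sodium pump, was at 22.8, 58.4, 25.1, 30.3 and 31.0 CPM in CN and 33.1 to 57.2 CPM in N libraries, and fell by 0.70 (SE 0.151, adjusted p = 0.0491). Stac2, an adaptor of calcium channels, was at 20.4, 44.2, 21.3, 18.7 and 22.6 CPM in CN and 25.0 to 43.3 CPM in N libraries, and fell by 0.64 (SE 0.134, adjusted p = 0.0355). Coprs, a partner of an arginine methyltransferase, was at 3.86, 14.2, 6.06, 6.94 and 6.57 CPM in CN and 7.96 to 10.3 CPM in N libraries, and fell by 0.67 (SE 0.126, adjusted p = 0.0198).

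Pomc, the precursor of beta-endorphin and melanocortins, was at 0.454, 3.17, 0.772, 0.702 and 0.952 CPM in CN libraries, against 0.974 to 1.72 CPM in N libraries with a median of 1.42. It fell by 0.95 (SE 0.205, adjusted p = 0.034) without CN library 2, and the value with it was -0.21 (adjusted p = 0.802). Sfrp4, a secreted antagonist of Wnt signalling, was at 0.416, 0.866, 0.618, 0.759 and 0.825 CPM in CN libraries, against 0.849 to 1.55 CPM in N and 1.01 to 1.40 CPM in control libraries. It fell by 0.94 (SE 0.205, adjusted p = 0.0353). Both genes stand near 1 CPM, and Pomc is not a defining gene of striatal cells. Lsm11, a part of the small nuclear ribonucleoprotein that trims histone messages, was at 5.52, 5.67, 5.13, 5.53 and 7.04 CPM in CN and 6.66 to 11.4 CPM in N libraries, and fell by 0.63 (SE 0.143, adjusted p = 0.0449). Of the 3 other named genes that fell, all chosen after their values were seen, Sord had -0.36 (adjusted p = 0.034), Rfx5 -0.34 (adjusted p = 0.026) and Vars -0.24 (adjusted p = 0.0389).

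Immediate-early genes, which neurons transcribe within minutes of activity without new protein synthesis, formed the list with the highest median without CN library 2 among lists with more than 5 genes tested. Of 24 genes, 15 were higher and 1 lower in CN at an unadjusted p under 0.05, and 0 passed the adjusted test. Over all genes tested, 7.85% were higher and 7.83% lower. The median log2 fold change was 0.58 without CN library 2 and 0.45 with it, with 12 genes higher and 0 lower in that fit. Over 28 settings the median ranged from 0.38 to 0.63. It was 0.63 without CN libraries 1 and 2 and 0.52 without N libraries 3, 5 and 8. The promoters of 4 members are printed because these members were among those of smallest p in the list. They are the 250 bases before the start of each gene in RefSeq (GRCm38.p6), all on the minus strand: chr19:4989972-4990221 for Npas4, chr6:85513590-85513839 for Egr4, chr4:55532476-55532725 for Klf4 and chr7:19310046-19310295 for Fosb. Capitals mark TGACG on either strand, the shared core of the cyclic AMP response element to which CREB binds, a motif chosen after the values were seen.
Npas4: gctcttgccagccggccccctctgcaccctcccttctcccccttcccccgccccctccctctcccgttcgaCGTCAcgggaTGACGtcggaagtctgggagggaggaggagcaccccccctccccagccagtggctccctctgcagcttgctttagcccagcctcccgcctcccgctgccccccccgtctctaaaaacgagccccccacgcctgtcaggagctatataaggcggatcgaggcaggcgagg
Egr4: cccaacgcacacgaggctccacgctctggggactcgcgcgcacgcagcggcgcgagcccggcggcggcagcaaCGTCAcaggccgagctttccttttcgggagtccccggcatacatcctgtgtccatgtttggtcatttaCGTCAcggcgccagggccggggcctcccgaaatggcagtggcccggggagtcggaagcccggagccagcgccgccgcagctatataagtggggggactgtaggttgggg
Klf4: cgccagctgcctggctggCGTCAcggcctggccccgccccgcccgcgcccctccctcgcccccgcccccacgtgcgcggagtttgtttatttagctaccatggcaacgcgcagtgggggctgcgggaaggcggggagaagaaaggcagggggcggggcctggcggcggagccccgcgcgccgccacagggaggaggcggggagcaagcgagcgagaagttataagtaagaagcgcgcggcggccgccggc
Fosb: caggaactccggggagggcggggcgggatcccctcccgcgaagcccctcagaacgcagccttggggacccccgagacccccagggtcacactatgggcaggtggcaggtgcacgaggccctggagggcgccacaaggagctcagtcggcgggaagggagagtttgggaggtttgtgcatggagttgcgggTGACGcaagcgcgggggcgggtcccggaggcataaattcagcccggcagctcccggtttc

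TGACG was found in the 250 bases of 15 of the 19 immediate-early genes with a promoter in the table, and in 5836 of 32851 promoter windows of all genes (17.8%). For this and the motifs below, a gene counted if any of its windows held the motif. Counts of genes and shares of windows are thus unlike measures. In Npas4 it stood at bases 179 to 175 and 169 to 165 before the start, in Egr4 at 177 to 173 and 109 to 105, in Klf4 at 232 to 228 and in Fosb at 60 to 56. The full palindrome TGACGTCA was in 3 of the 19 (Btg2, Dusp1 and Maff) and in 1.55% of all windows, and each of its matches also holds TGACG. The CArG box, the site of serum response factor, was in 1 of the 19 (Egr2) and in 1.47% of windows, and the AP-1 site TGANTCA in 0 and in 6.75%. Both strands were searched, and a match describes letters and shows no binding.

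Npas4, an activity-dependent transcription factor particular to neurons, was at 27.6, 40.3, 43.8, 51.8 and 33.4 CPM in CN libraries, against 12.6 to 28.3 CPM in N libraries with a median of 17.8. Only CN library 1 lay within the N range. The difference was 1.04 on the log2 scale (SE 0.299, adjusted p = 0.108), a 2.05-fold higher level, and 1.04 (SE 0.248, adjusted p = 0.135) with all libraries. Egr4, a zinc finger factor of the early growth response family, was at 55.6, 53.2, 53.1, 72.2 and 72.2 CPM in CN libraries, against 21.6 to 49.4 CPM in N libraries with a median of 31.8. All CN libraries, library 2 included, lay above all N libraries (log2 fold change 0.89, SE 0.249, adjusted p = 0.1).

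Klf4, a Krüppel-like factor, was at 4.69, 2.96, 3.52, 4.86 and 4.82 CPM in CN and 1.76 to 4.39 CPM in N libraries, with a log2 fold change of 0.70 (adjusted p = 0.0704). Fosb, a partner of Jun proteins in AP-1, was at 20.6, 12.2, 22.03, 24.6 and 25.4 CPM in CN and 11.2 to 19.97 CPM in N libraries (log2 fold change 0.58, adjusted p = 0.106). Fosl2, of the same family, was at 52.3, 8.39, 25.5, 48.3 and 65.7 CPM in CN and 14.7 to 28.9 CPM in N libraries (log2 fold change 1.196, SE 0.365, adjusted p = 0.126). Junb was at 108, 110, 128, 160 and 149 CPM in CN and 42.4 to 113 CPM in N libraries (log2 fold change 0.78, adjusted p = 0.174). The single member lower at an unadjusted p under 0.05 was Nr4a2, a nuclear receptor also made constitutively in cortical and claustral neurons, at 1.51, 9.14, 2.53, 5.76 and 4.22 CPM in CN and 1.85 to 21.9 CPM in N libraries.

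Within the N group the immediate-early genes were not uniform. Of the 24 genes, 19, 17, 18, 22 and 22 stood above the N mean in CN libraries 1 to 5, against 8, 20, 6, 11, 7, 21, 20 and 6 in N libraries 1 to 8. N libraries 2, 6 and 7 thus stood as high as the CN libraries by this count. In controls the counts were 21, 20, 8, 20, 5, 19, 21 and 12. Summed over the list, levels were 1407, 999, 1306, 1676 and 1630 CPM in CN libraries, 639 to 1256 CPM with a median of 867 in N and 791 to 1897 CPM with a median of 1179 in control libraries. Against controls, the list median was 0.22 for CN and -0.33 for N. The time and handling at death, which these genes follow within minutes, were not found in the labels.

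**Figure D3:**
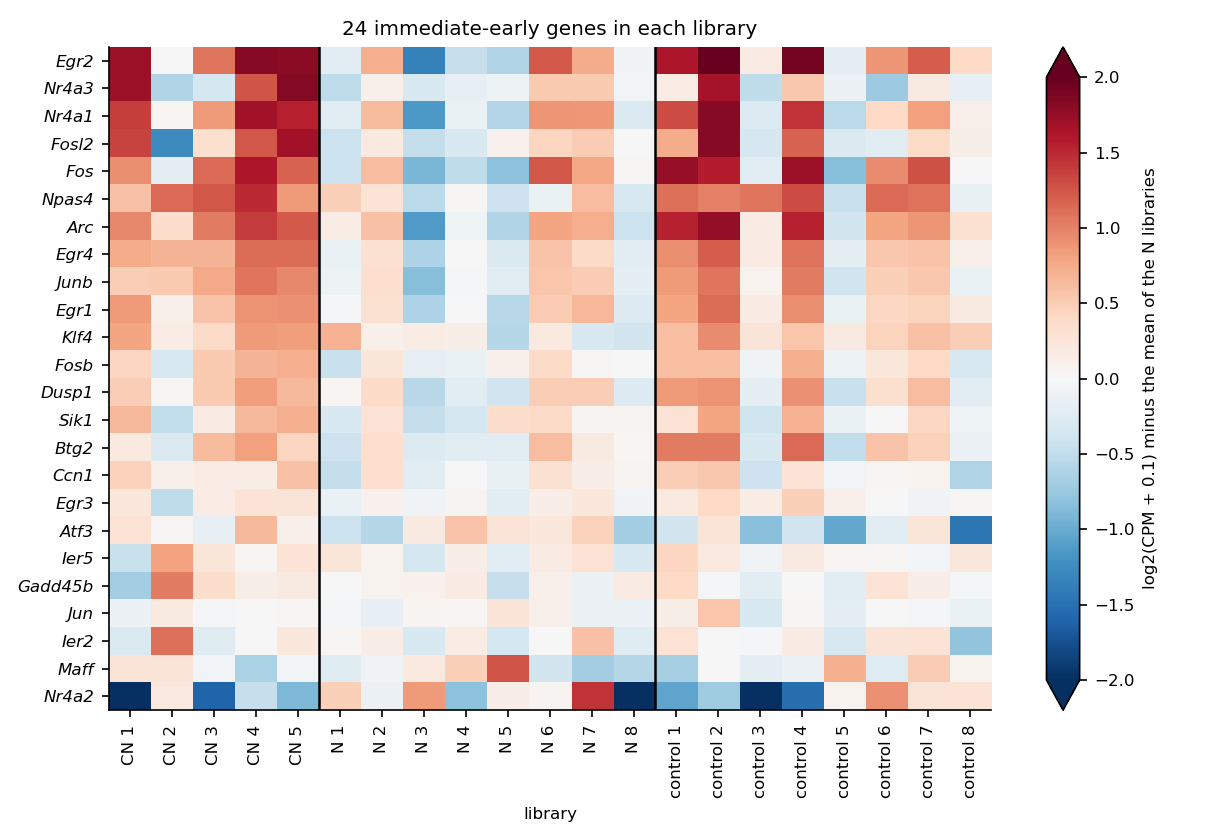
Heat map of 24 immediate-early genes (rows) in each CN, N and control library (columns), coloured by log2(CPM + 0.1) minus the mean of the N libraries, from blue (lower) to red (higher). CN libraries 4 and 5 stand above the N mean in 22 of 24 genes each, while N libraries range from 6 to 21 genes.

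Late activity genes, which follow hours after the first wave, showed a smaller difference. Of 20 genes, 9 were higher and 2 lower at an unadjusted p under 0.05, the median was 0.14 (0.15 with all libraries), and Homer1 was the 1 call. Rgs2, which shortens G-protein signals, was at 156, 191, 148, 176 and 168 CPM in CN libraries, against 80.05 to 134 CPM in N libraries, with no overlap (log2 fold change 0.55, SE 0.147, adjusted p = 0.087). Spred1, an inhibitor of Ras signalling, had 0.26 (adjusted p = 0.0575) and Dusp6, a phosphatase of ERK, 0.72 (adjusted p = 0.13). The 2 lower members were Bdnf, with -1.55 (SE 0.613, adjusted p = 0.223), and Scg2, with -0.27 (adjusted p = 0.17). Bdnf was at or below 2.001 CPM in CN libraries and at 0.773 to 6.04 CPM in N libraries.

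All 24 genes of spiny projection neurons had a log2 fold change above 0 without CN library 2, with a median of 0.19 (0.16 with all libraries), where 47.1% of all genes tested lay above 0 (50% with all libraries). At an unadjusted p under 0.05, 19 were higher and 0 lower, beside 7.85% and 7.83% of all genes tested, and 0 passed the adjusted test. The 4 CN libraries lay above every N library for 5 of the 24, and for 0.885% of all genes tested. Drd1, the D1 dopamine receptor, was at 306, 306, 319, 340 and 320 CPM in CN libraries, against 226 to 299 CPM in N libraries with a median of 285 (log2 fold change 0.24, SE 0.0649, adjusted p = 0.0739). No library of the 2 groups overlapped. Rgs9, which speeds the shut-off of dopamine receptor signals, was at 713, 897, 781, 767 and 727 CPM in CN and 508 to 707 CPM in N libraries, again without overlap (log2 fold change 0.25, adjusted p = 0.129). Arpp21, a phosphoprotein regulated by cyclic AMP, had 0.23 (adjusted p = 0.0574), Foxp2, a transcription factor of striatal neurons, had 0.24 (adjusted p = 0.0697), and Chrm4, a muscarinic receptor, had 0.36 (adjusted p = 0.105).

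Summed over the spiny neuron list, levels were lowest in N libraries 3, 5 and 8, those with Xist or muscle transcripts. The sums were 15878, 15395 and 16401 CPM there, against 18140 CPM or more in CN libraries. This did not hold for every gene: Ppp1r1b was lowest in a CN library, at 1445 CPM against 1489 CPM or more in N. Drd1 was at 226, 234 and 260 CPM in N libraries 3, 5 and 8 and at 278 to 299 CPM in the other N libraries, and Rxrg was at 79.6, 76.4 and 78.9 CPM there. Without these libraries the median of the spiny neuron list was 0.12. Genes of the direct pathway had a median of 0.09 with 3 higher and 1 lower of 10, and genes of the indirect pathway a median of 0.05 with 1 higher and 0 lower of 10, at an unadjusted p under 0.05.

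Cholinergic interneurons, the tonically active cells that supply acetylcholine to the striatum, had 12 listed genes with a median of 0.31 (0.35 with all libraries). At an unadjusted p under 0.05, 7 were higher and 0 lower, beside 7.85% and 7.83% of all genes tested, and 0 passed the adjusted test. In both fits 9 of the 12 lay above 0 and 3 below. The transcription factor genes Lhx8, Isl1, Gbx2 and Zic4 were not among the 7. Their log2 fold changes were 0.12, -0.01, -0.36 and -0.23 without CN library 2. Chat, which makes acetylcholine, was at 31.2, 18.5, 31.0, 27.9 and 32.8 CPM in CN libraries, against 14.8 to 29.6 CPM in N libraries with a median of 22.3 and 25.9 to 32.2 CPM in controls (log2 fold change 0.48, SE 0.125, adjusted p = 0.0782). CN library 2 and CN library 4 lay within the N range. Ecel1 was at 55.6, 64.9, 59.4, 50.4 and 64.6 CPM in CN and 28.2 to 53.9 CPM in N libraries (log2 fold change 0.46, adjusted p = 0.0704). Slc10a4, a vesicular protein of cholinergic cells, had 0.44 (adjusted p = 0.0721), Slc5a7, the choline transporter, 0.52 (adjusted p = 0.101) and Slc17a8, a vesicular glutamate transporter of these cells, 0.50 (adjusted p = 0.0959). Against controls, the list median was -0.03 for CN and -0.40 for N. It was 0.20 for CN over N without N libraries 3, 5 and 8.

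Other interneurons showed no common direction, with a median of -0.09 over 16 genes, 2 higher and 3 lower at an unadjusted p under 0.05. Over all genes tested, 7.85% were higher and 7.83% lower. Gad1, an enzyme of GABA synthesis in all these cells, had 0.16 (adjusted p = 0.135). Vip, a peptide mostly made by cortical interneurons, was at 0.983, 3.08, 0.371, 0.674 and 0.825 CPM in CN libraries, against 1.17 to 4.03 CPM in N libraries (log2 fold change -1.46, SE 0.371, adjusted p = 0.0704). Calb2, calretinin, had -1.08 (adjusted p = 0.183).

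Glial lists had small medians without CN library 2, from -0.10 (astrocytes) to 0.07 (oligodendrocytes). Among astrocyte genes 15 of 19 lay below 0 in both fits, and among oligodendrocyte genes 16 of 18 lay above 0. Of all genes tested, 47.1% lay above 0 without CN library 2 and 50% with all libraries. Of 19 astrocyte genes, 0 were higher and 4 lower at an unadjusted p under 0.05, beside 7.85% and 7.83% of all genes tested. Their median was -0.10 (-0.16 with all libraries), and Slc25a18 was the 1 call. Fgfr3, a growth factor receptor of astrocytes, was at 84.5, 93.3, 84.6, 87.0 and 91.2 CPM in CN libraries, against 95.3 to 149 CPM in N libraries. The groups did not overlap, and the adjusted p was 0.139 (log2 fold change -0.32). Mlc1, a membrane protein of astrocyte endfeet, had -0.24 (adjusted p = 0.0801). Oligodendrocyte genes had a median of 0.07 with 0 of 18 at an unadjusted p under 0.05, and endothelial genes 0.09 with 1 of 20 higher. Of 20 genes of fibroblasts and matrix, 2 were higher and 6 lower, with a median of -0.17 and Sfrp4 as the call. Col4a2, a basement membrane collagen, had -0.24 (adjusted p = 0.11).

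Transcripts of excitatory neurons of cortex and hippocampus, which surround the striatum, were lower on average in the CN libraries other than library 2. Of 18 listed genes, 1 was higher and 9 lower at an unadjusted p under 0.05, with a median of -1.04, or -0.40 with all libraries, and 0 passed the adjusted test. Slc17a7, the vesicular glutamate transporter of these neurons, was at 18.5, 164, 26.7, 35.1 and 49.1 CPM in CN libraries, against 27.1 to 234 CPM in N libraries with a median of 86.5 (log2 fold change -1.61, SE 0.566, adjusted p = 0.175). Tbr1, a transcription factor of cortical neurons, was at 3.48, 16.8, 3.46, 4.55 and 5.55 CPM in CN and 5.57 to 40.1 CPM in N libraries (log2 fold change -1.91, adjusted p = 0.134). Nrn1, neuritin, was at 1.02, 4.33, 1.30, 1.21 and 1.78 CPM in CN and 2.55 to 11.9 CPM in N libraries (log2 fold change -1.87, SE 0.51, adjusted p = 0.0914). Slc17a7 marks the neurons of this list, so its level as a covariate takes out much of the list's shift by design. With that covariate the list median was -0.02 and 49 genes were called in all, 22 of them among the 70. The immediate-early median was then 0.59, and Htr1b remained called while Homer1 had an adjusted p of 0.0716.

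Choroid plexus genes had a median of -0.88 with 0 of 16 at an unadjusted p under 0.05, and their summed level ran from 226 to 5386 CPM in N libraries. Skeletal muscle genes had a median of -0.85 with 0 higher and 6 lower of 11 tested, and -0.21 without N libraries 3, 5 and 8. Thalamic and septal genes had -0.28 with 0 higher and 3 lower of 10. The part of such tissue in the genes described above was not tested beyond these fits.

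**Figure D4:**
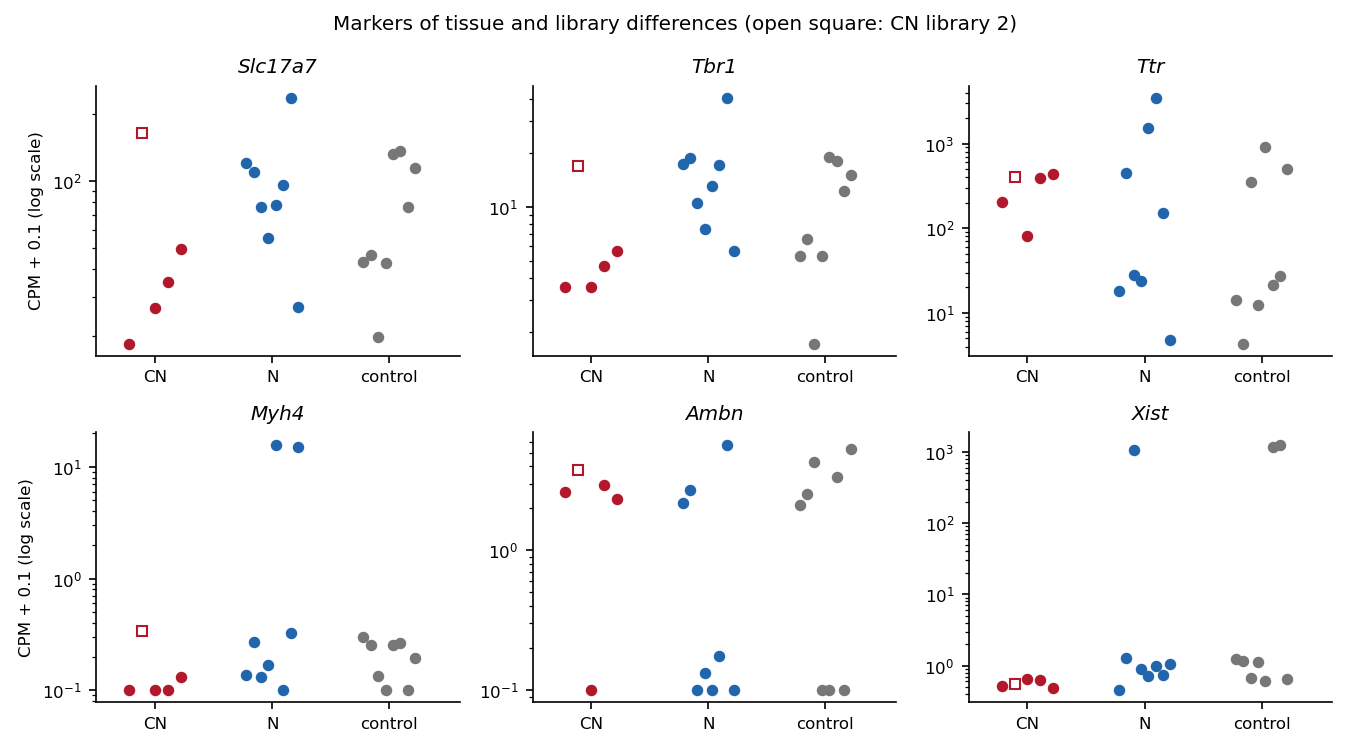
Level (CPM + 0.1, log axis) of 6 markers of neighbouring tissue and of library differences in every CN, N and control library, with CN library 2 as an open square and points spread sideways only for sight. Slc17a7 and Tbr1 are low in 4 of 5 CN libraries, Myh4 is high in 2 N libraries and Xist in 1 N and 2 control libraries.

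Several lists turned their direction with CN library 2. The 78 genes of cytosolic ribosomal proteins had a median of 0.28 with all libraries, with 9 higher and 0 lower at an unadjusted p under 0.05, and of -0.10 without that library, with 0 higher and 10 lower. The 55 nuclear genes of the respiratory chain had 0.19 with 3 higher and 0 lower, and -0.13 with 0 higher and 10 lower without it. Genes of both sets are known for short transcripts. After removal of the length trend, the ribosomal median was 0.13 with all libraries and -0.08 without CN library 2. For the respiratory chain it was 0.03 and -0.08. The part of length in these medians was not tested. Microglial genes had a median of 0.25 with 8 of 18 higher, and 0.05 without CN library 2, with 4 higher and 1 lower. Interferon and MHC class I genes had 0.50 and 0.13, with 0 of 24 at an unadjusted p under 0.05 in the second fit. The microglial and interferon medians shrank but stayed above 0 in both fits, while over 28 settings the interferon median ran from -0.27 to 0.64. No direction can be given for the ribosomal and respiratory chain sets. The same holds for lists with smaller medians that also crossed 0 between the fits, which were the potassium channel, sodium and calcium channel, glutamate receptor, other interneuron, reactive astrocyte, complement, mitochondrially encoded, miRNA pathway, splicing regulator and neurotrophin lists. Immediate-early, spiny neuron and cholinergic genes were among the lists with a median of the same sign in both fits.

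**Figure D5:**
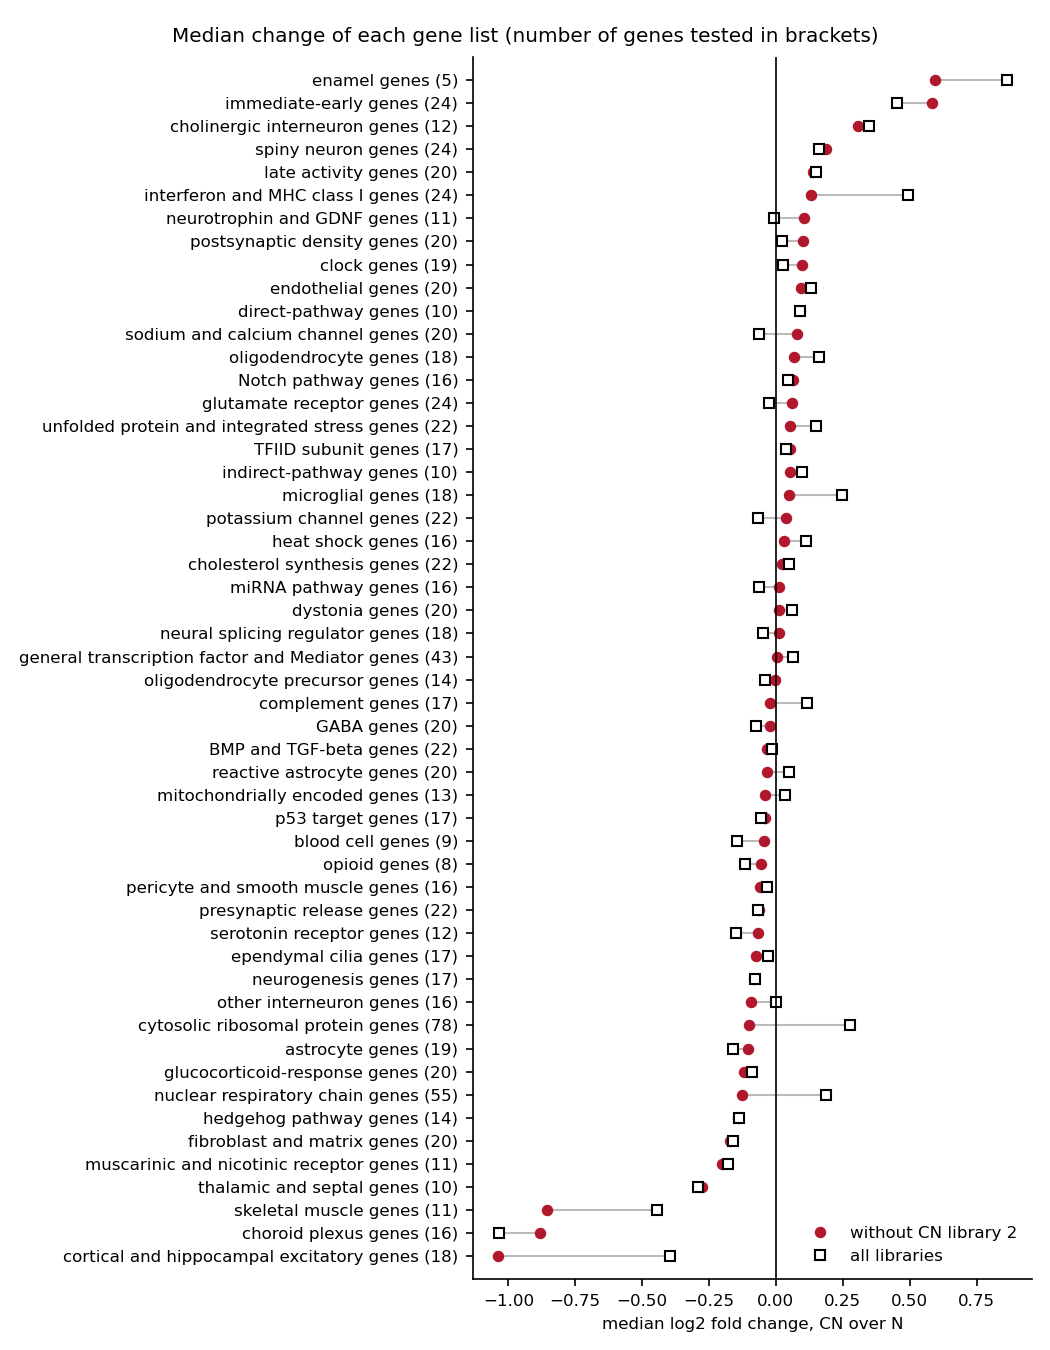
Median log2 fold change of CN over N for each gene list, sorted by the value without CN library 2 (filled circles), beside the value with all libraries (open squares) and the number of genes tested. Ribosomal and respiratory chain genes cross 0 between the 2 fits, while immediate-early genes lie at 0.58 and 0.45.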

How the data were processed

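Read counts per Ensembl gene were deposited as 1 table for mouse, with 1 column per animal. Per the submitters' processing notes, reads were aligned with STAR and counted with featureCounts, and edgeR was used, with no versions. The notes name the human build GRCh38, while the rows carry mouse gene identifiers, so the build is unsettled, and coordinates are printed only for RefSeq promoters. For annotation release and strand the sources used here give nothing, and reads shared by genes that overlap, on either strand, cannot be told apart. Of 54532 rows, 123 without a symbol held 0.0704% of the counts. Columns without a match to a sample numbered 0.

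Groups were taken from the injection label, since the description field ends alike for all mice. For 1 mouse the injection label names no miRNA, and it entered no comparison. Animals were numbered within groups in record order. The most alike pair of libraries within CN or N had a chi-square of 5.91 per degree of freedom over its counts, where sampling alone gives about 1, so none was counted as a duplicate. P-values measure the spread between these animals.

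From the deposited counts, edgeR 4.0.16 (with limma 3.58.1, under R 4.3.3) fitted one quasi-likelihood model over 5 CN, 8 N and 8 control libraries, with TMM scaling, filterByExpr and robust dispersion, and repeated without CN library 2. The threshold for a call was 0.05 on p-values adjusted by Benjamini-Hochberg. DESeq2 1.42.0 was an alternative. The other alternatives were limma-voom with and without sample weights, other scaling and filters, an offset for exon length, covariates and left-out libraries. The median SE of a log2 fold change at 10 CPM or more was 0.068 without CN library 2 and 0.092 with it. The procedure was tested on simulated counts. Promoters came from RefSeq (GRCm38.p6).

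The comparison, lists and rules were chosen with earlier results of these data known. Named genes are Taf1, in each fit the 10 called genes of largest change per direction at 1 CPM or more on average that are not known by a clone name alone (the 5 of smallest p where fewer than 5 were called), in each list up to 6 members by p, and cell type markers. Others are said to be chosen after their values were seen.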

Additional observations from a re-analysis of the deposited data

Results flagged for a closer look

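Among 27 genes checked for a library far from the rest of its group, 11 of 54 groups held one, where chance gives about 1 in 20 for genes chosen without regard to a library. Most of these genes were called in the fit that left out CN library 2, which favours genes whose other CN libraries are alike, so that rate does not hold for its flags. CN library 2 was the library in 7 of the 11. It was the lowest of the CN libraries for Taf1 (50.6 CPM, next 95.7), Sik2 (4.45, next 29.8), Garem1 (15.1, next 60.7) and Cttnbp2 (123, next 254). It was the highest of them for Pomc (3.17 CPM, next 0.952), Fxyd6 (58.4, next 31.0) and Stac2 (44.2, next 22.6). The other 4 libraries were set apart for a single gene each. N library 4, which had the most negative relation to length after CN library 2, was the lowest N library for Taf1 at 83.7 CPM. Dubr was highest in N library 1 at 18.6 CPM, Kcnk4 in N library 7 at 3.35 CPM and Lsm11 in CN library 5 at 7.04 CPM. Explanations were not tested.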

How the results depend on the processing

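No paired analysis was possible because the replicate numbers follow the order of the records and pair no animals. With all libraries the count of called genes was 0, and it ranged from 0 to 70 with 1 library left out, being 70 without CN library 2, 23 without N library 1 and 0 otherwise. It was 4 without CN libraries 1 and 2, 8 without a filter, 7 with the length offset, 172 by DESeq2 and 145 by limma-voom with sample weights. RLE and upper-quartile scaling, a minimum of 1 CPM, no robust dispersion, limma-voom, CN and N alone and both uses of Ambn gave 0. Without CN library 2 the count was 70, and 4 to 336 with a further library left out (4, 179, 6 and 20 without CN libraries 1, 3, 4 and 5; 336, 154, 35 and 40 without N libraries 1, 2, 3 and 5). It was 599 by DESeq2, 70 by limma-voom, 150 with sample weights, 77 with RLE, 1 with CN and N alone, 103 with a Ttr covariate, 49 with Slc17a7, 34 with Xist, 8 with Ambn class and 0 with Ambn at 0.5 CPM or more. It was 6 without N libraries 5 and 8, 6 without N libraries 3, 5 and 8, and 32 without the Xist libraries. These last 3, the further left-out libraries other than CN library 1, the length offset without CN library 2 and sample weights without CN library 2 were chosen after seeing the data. The cause was not tested.

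Of the values for single genes, 21 reversed. Taf1, at -0.161 to 0.0515 with 1 library left out, was counted as reversed in 12 settings, all without CN library 2 or with its weight near 0: 0.0515 without it, 0.0461 without CN libraries 1 and 2, 0.052 with CN and N alone, 0.0543 with RLE, 0.0543 with DESeq2, 0.0534 with limma-voom, 0.0521 with sample weights, 0.0435 with Ttr, 0.0459 with Slc17a7, 0.0531 with Xist, 0.056 with Ambn class and 0.0629 with Ambn at 0.5 CPM or more. Over all 34 other settings without CN library 2, Taf1 lay above 0, at 0.018 to 0.077. With all libraries limma-voom gave Sik2 -0.20 and Garem1 -0.0645, the Ambn subset gave Scg2 0.0273 and Calb2 0.0812, and Taf4 was -0.00534 without CN library 1 and no more than 0.134 without any other library. The Slc17a7 covariate put Slc17a7 at 0.0015, by construction, and Nr4a2 at 0.21, from either starting fit. The other changes were 512 values that lost a call, 486 that gained one and 13 list medians that moved by more than the spread.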

Other observations

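Further lists gave small or mixed differences without CN library 2, with 0 of their members called. Atf6, a sensor of unfolded proteins, and Syt4, a synaptotagmin, both rose but are not members of these lists. Of 20 GABA genes, 4 were higher and 4 lower at an unadjusted p under 0.05, with a median of -0.02. Over all genes tested, 7.85% were higher and 7.83% lower. Of 19 clock genes, 4 were higher and 0 lower, with a median of 0.10. Per2, a repressor of the clock that also responds to activity, was at 65.3, 31.3, 61.4, 70.7 and 75.1 CPM in CN and 40.4 to 60.6 CPM in N libraries (log2 fold change 0.44, edgeR adjusted p = 0.141). Of 22 genes of presynaptic release, 2 were higher and 3 lower, with a median of -0.06. Cplx2, a complexin that clamps vesicle fusion, was higher in all 5 CN libraries than in any N library (log2 fold change 0.23, adjusted p = 0.0542). Of 22 genes of the unfolded protein and integrated stress responses, 3 were higher and 5 lower, with a median of 0.05, against 8 higher and 2 lower and a median of 0.15 with all libraries. Hspa5, the chaperone BiP, had 0.26 (adjusted p = 0.115).

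Of the 70 called genes, 9 carry only a clone-like symbol and were left out of the naming rule, 7 of them higher and 2 lower in CN. Gm30806 was at 1.59, 1.58, 2.10, 1.55 and 2.51 CPM in CN libraries, against 0.762 to 1.45 CPM in N libraries (log2 fold change 0.86, adjusted p = 0.034). B230303O12Rik was at 1.25, 1.67, 1.42, 1.18 and 1.05 CPM in CN and 1.24 to 4.33 CPM in N libraries, with a log2 fold change of -1.27 (adjusted p = 0.0234). Gm29156 was at 0.254 to 0.402 CPM in CN and 0.538 to 1.02 CPM in N libraries, with -1.19 (adjusted p = 0.0409).

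The library whose injection label names no miRNA was scaled to its own total alone, without TMM, unlike the CN and N libraries. It had 104 CPM of Taf1, 69.3 of Htr1b, 1.06 of Gli1, 2.51 of Col7a1, 122 of Tfrc, 42.0 of Npas4 and 42.8 of Egr4. Slc17a7 was at 156 CPM there. Lcn2 was at 12.6 CPM, against 0.358 CPM at most in CN and 3.96 CPM at most in N libraries.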
